A study of Mus musculus with 23 samples.

Results

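Enzymes that make squalene and carry it to cholesterol were examined as a group of 9 genes picked by their place in the pathway: Fdft1, Sqle, Lss, Cyp51, Tm7sf2, Nsdhl, Hsd17b7, Ebp and Dhcr7. They are 9 of the 20145 genes that the array names, and they are read by 13 of its 55681 probes. The rule that picks them uses no measured value, but the 9 genes were chosen with earlier results of these data known. The paper on these arrays had already listed all but Ebp among the cholesterol genes higher with DOM. Of the 9 it listed only Nsdhl and Lss there for MEHP and only Dhcr7 for DINCH. The counts below are therefore not an independent test of the pathway. The cells were TM4, an immortalized line from mouse testis described as Sertoli cells, the somatic cells that nurse developing sperm. Cultures were treated for 48 hr with 100 μM of mono(2-ethylhexyl) phthalate (MEHP), diisononyl cyclohexane-1,2-dicarboxylate (DINCH), dioctyl maleate (DOM), 1,4-butanediol dibenzoate (BDB) or dioctyl succinate (DOS), or with the vehicle alone, and every culture, treated or control, held 1% DMSO. MEHP is the active metabolite of a phthalate plasticizer and the other compounds are plasticizers or candidates for that use. RNA from each culture was hybridized to its own 1-colour array, with 4 arrays a group and 3 for DOS.

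Animal cells build cholesterol from acetyl-CoA. The mevalonate arm of the pathway makes farnesyl pyrophosphate, squalene synthase joins this into squalene, and squalene is then oxidized, closed into the sterol ring as lanosterol and trimmed to cholesterol by demethylases, reductases and an isomerase. When sterol in the endoplasmic reticulum falls, the membrane-bound transcription factor SREBF2 is released and raises transcription of most of these enzymes, often together with the CCAAT-binding factor NF-Y and the GC-box factor SP1. In the testis cholesterol serves membranes and is the starting material of steroid hormones.

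RefSeq promoter windows on GRCm38.p6, which run from 250 bases before to 50 bases after a gene's start, were found for 7 of the 9 genes (9 windows, of which 3 belong to Dhcr7). Fdft1 and Sqle had no entry. Exact matches were searched on both strands. The NF-Y box CCAAT lay in 7 of the 9 windows and in at least 1 window of each of the 7 genes, beside 37.4% of all 32851 windows. The GC box GGGCGG lay in 8 of the 9 windows and likewise in all 7 genes, beside 35.7% of all windows. The sterol regulatory element, searched as TCACNCCAC, had no exact match in the 9 windows, and 1.24% of all windows hold one. Forms of the element that differ from this string were not searched, so its absence from these promoters is not shown. None of these 3 motifs contains another. The 120 bases just before the start are printed for each of the 7 genes, 5′ to 3′ on the gene's strand and ending 1 base before the start, because all 7 have an NF-Y box there. The length of 120 bases was chosen after the matches were seen. In that stretch 7 of the 9 member windows hold the box, beside 21.3% of all windows. The first and second Dhcr7 windows hold none there, and the third is printed because it does. The capitals mark the NF-Y boxes, read as ATTGG where the box lies on the opposite strand. The stretches lie at chr10:76531485-76531604 (Lss, plus strand), chr5:4104698-4104817 (Cyp51, minus), chr19:6067851-6067970 (Tm7sf2, minus), chrX:72918401-72918520 (Nsdhl, plus), chr1:169969206-169969325 (Hsd17b7, minus), chrX:8193513-8193632 (Ebp, minus) and chr7:143830094-143830213 (Dhcr7, the third of its windows, plus).
Lss: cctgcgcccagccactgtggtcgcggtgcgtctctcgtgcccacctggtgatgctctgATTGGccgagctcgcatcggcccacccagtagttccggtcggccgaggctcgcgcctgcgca
Cyp51: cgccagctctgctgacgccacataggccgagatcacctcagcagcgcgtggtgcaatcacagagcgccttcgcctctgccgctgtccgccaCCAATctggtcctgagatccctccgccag
Tm7sf2: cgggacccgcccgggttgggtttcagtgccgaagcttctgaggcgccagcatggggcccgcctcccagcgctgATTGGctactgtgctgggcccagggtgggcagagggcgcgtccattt
Nsdhl: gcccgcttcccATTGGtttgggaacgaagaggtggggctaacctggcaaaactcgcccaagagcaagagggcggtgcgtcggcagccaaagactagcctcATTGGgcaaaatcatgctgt
Hsd17b7: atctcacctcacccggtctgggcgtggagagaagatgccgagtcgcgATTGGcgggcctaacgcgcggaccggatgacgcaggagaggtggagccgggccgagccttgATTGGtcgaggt
Ebp: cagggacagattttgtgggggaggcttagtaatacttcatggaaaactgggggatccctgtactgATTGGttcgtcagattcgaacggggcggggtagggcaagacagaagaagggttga
Dhcr7: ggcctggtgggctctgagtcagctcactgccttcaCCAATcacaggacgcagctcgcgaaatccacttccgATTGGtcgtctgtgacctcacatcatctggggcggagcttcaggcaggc

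Nsdhl and Hsd17b7, which encode partners in the same demethylation step, each have 2 boxes in this stretch, and so does Dhcr7. Ebp and Tm7sf2 have 1 box each there. The numbers depend on the length searched, and in the whole windows Nsdhl has 4 boxes, Hsd17b7 3, Ebp 2 and Tm7sf2 1. Whether the number of boxes goes with the size of a change was not tested. The matches are a description of the letters, and no binding was measured.

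All values that follow are log2 levels, that is, the log2 of the processed intensity minus the array's own 75th percentile, for the brightest probe of each gene. A level is compared between arrays and never between genes. On each array 43.4% to 52.2% of spots stood well above background, and the brightest probe of each of the 9 genes was so on all 23 arrays. A call required that at least 1 probe of the gene differed by more than 1.5-fold at an adjusted p below 0.05 in limma, with Benjamini-Hochberg adjustment over all tested probes, and all 9 genes were tested in every comparison. The replicates are separate cultures of 1 cell line, so p-values measure the spread between these cultures. The MEHP, DINCH and BDB arrays lay in rows 1 and 3 of the 3 slides and the DMSO, DOM and DOS arrays in rows 2 and 4, where the row is the last number of an array's position on its slide. For MEHP, DINCH and BDB against DMSO, the compound and the row of the slide therefore cannot be told apart. The Sertoli cell markers Sox9, Gata4, Dhh, Kitl and Inhbb were above background on every DMSO array, and Wt1, Fshr and Cldn11 were never above it on any of them. Of the germ cell markers Ddx4, Dazl and Sycp3 none was above background on every DMSO array, and of the Leydig, peritubular myoid and macrophage lists 1 gene each was (Cyp17a1, Acta2 and Csf1r).

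DOM raised the group most, MEHP raised most of it by less, and DINCH raised a single member past the threshold, while no member was called with BDB or DOS and none was called lower with any compound. With DOM 8 of the 9 genes were called higher, all but Ebp, beside 9.9% of all genes tested, and the median change of the 9 was 1.00 (range 0.44 to 2.04) against -0.03 over all genes. With MEHP 7 were called higher, all but Sqle and Ebp, beside 1.13% of all genes, and the median change was 0.62 (0.30 to 0.95) against -0.01. With DINCH Dhcr7 alone was called, beside 4.25% of all genes. Yet 8 of the 9 changes lay above 0, beside 49.9% of all genes, with a median of 0.44 (-0.02 to 0.65). The paper labelled the same starting amount of RNA from each culture, and each level is relative to its own array. The levels are therefore not amounts per culture or per cell. Whether all cells of a culture or only some of them changed was not tested in these bulk samples.

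**Figure D1:**
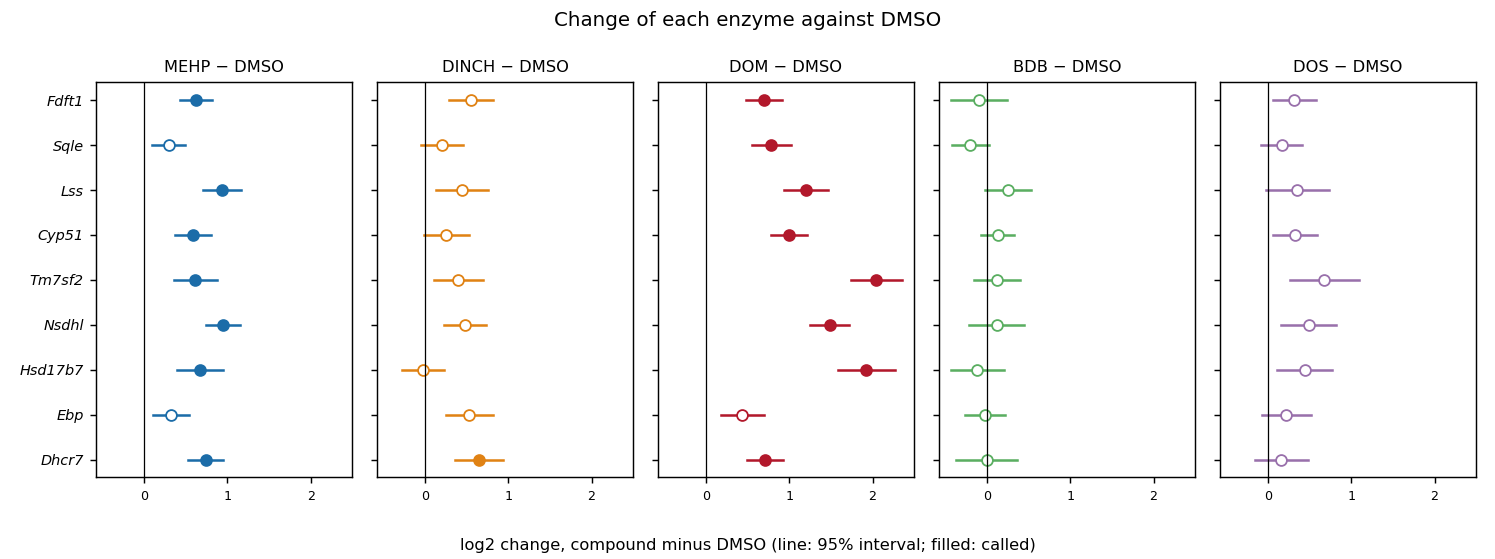
Change of each enzyme against DMSO on the log2 scale (horizontal axis), in pathway order from top to bottom, with 1 panel for each compound. Points are limma estimates, lines are 95% intervals and filled points mark genes called. DOM lies farthest right, at 2.04 for Tm7sf2 and 1.92 for Hsd17b7, and BDB lies around 0.

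The call for MEHP depended on the filter on dim probes. When every probe was tested, no member was called with MEHP or DINCH and the 8 called with DOM were still 8 in number. The size of the changes was the same, since the filter does not touch the values. The smallest adjusted p for MEHP among the brightest probes then was 0.0953, for Nsdhl. With DINCH the count was 0 without DMSO replicate 3 or DINCH replicate 4 and 2 without DMSO replicate 2 or 4 or DINCH replicate 2 or 3.

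The groups of arrays were also compared directly. All 9 genes read higher on every MEHP array than on every DMSO array, beside 7.79% of all genes, and the same held for all 9 with DOM, beside 19% of all genes. With DINCH this held for 6 members, beside 11.6% of all genes. With DOS it held for 5 members (Fdft1, Lss, Cyp51, Tm7sf2 and Nsdhl), beside 4.35% of all genes, and with BDB for 0 members, beside 3.3%.

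**Figure D2:**
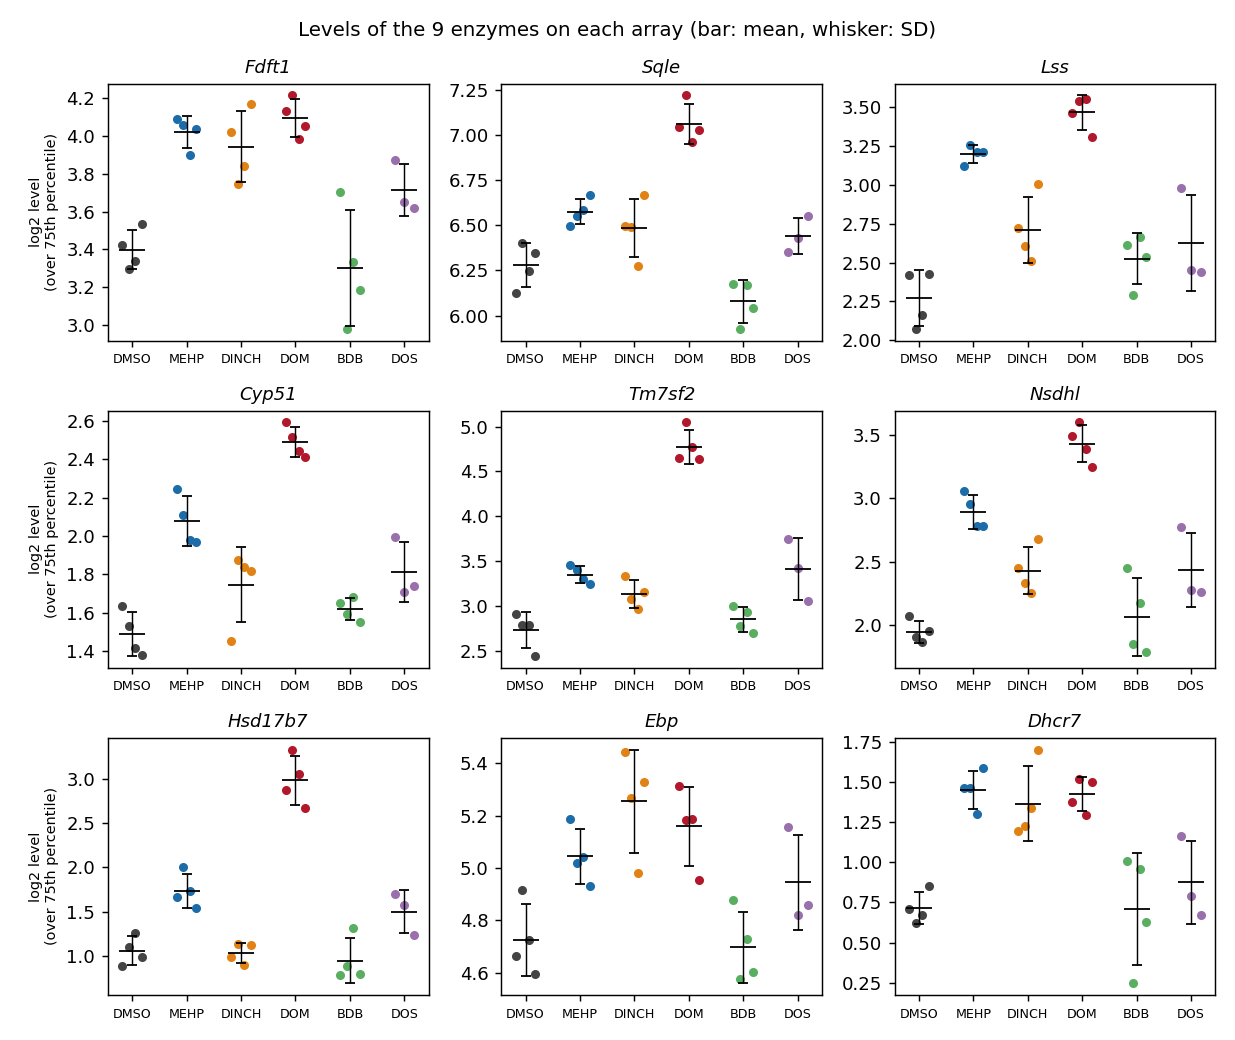
Log2 level (vertical axis, relative to the array's 75th percentile) of the brightest probe of each enzyme on each of the 23 arrays, with 1 panel for each gene and its own axis range. Points are arrays in replicate order, the bar is the group mean and the whisker the SD (n = 4, for DOS n = 3). The DOM arrays of Tm7sf2, Hsd17b7, Nsdhl, Lss, Cyp51 and Sqle stand above the arrays of every other group, and the Dhcr7 arrays of MEHP, DINCH and DOM overlap.

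Fdft1 encodes squalene synthase, the first step that leads to sterols alone. On the DMSO arrays, in the order of the replicates, it read 3.42, 3.30, 3.34 and 3.53, and on the MEHP arrays 4.09, 4.06, 3.90 and 4.04. DINCH gave 4.02, 3.74, 3.84 and 4.17 and DOM 4.13, 4.22, 3.99 and 4.05. These 3 groups lay wholly above DMSO and overlapped each other. The change was 0.62 ± 0.08 (SE) with MEHP (adjusted p = 0.0117), 0.55 ± 0.12 with DINCH (adjusted p = 0.0217) and 0.70 ± 0.10 with DOM (adjusted p = 0.00110). The DINCH change passed the test of significance but at 1.46-fold not the fold threshold. BDB gave 3.70, 2.98, 3.33 and 3.18, so that its first replicate lay above all DMSO arrays and 2 others below them. A second Fdft1 probe was above background on 4 arrays and was not tested.

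Sqle encodes squalene epoxidase, which oxidizes squalene and is a rate-limiting step of the pathway. It read 6.12, 6.40, 6.25 and 6.35 with DMSO and 7.04, 7.22, 6.96 and 7.03 with DOM. MEHP gave 6.50, 6.55, 6.59 and 6.67 and DINCH 6.49, 6.49, 6.28 and 6.67. The lowest DOM array stood above the highest array of every other group. Sqle changed by 0.78 ± 0.10 with DOM (adjusted p = 0.000823), a 1.72-fold rise. The MEHP arrays lay close above DMSO, with a difference of 0.30 (95% interval 0.10 to 0.49, adjusted p = 0.128), and the DINCH arrays overlapped DMSO (0.20, interval -0.05 to 0.46). With BDB Sqle read 6.17, 5.93, 6.17 and 6.04, the lowest difference from DMSO of any member with any compound (-0.20, interval -0.42 to 0.02, adjusted p = 0.394).

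Lss encodes lanosterol synthase, which closes squalene epoxide into the sterol ring. The DMSO arrays read 2.42, 2.07, 2.16 and 2.43, the MEHP arrays 3.12, 3.26, 3.21 and 3.21 and the DOM arrays 3.47, 3.54, 3.55 and 3.31. DINCH gave 2.72, 2.61, 2.51 and 3.01, DOS 2.98, 2.45 and 2.44 and BDB 2.61, 2.29, 2.66 and 2.54. The 3 levels DMSO, MEHP and DOM did not overlap, while DOS and BDB overlapped DINCH. Lss rose by 0.93 ± 0.10 with MEHP (1.91-fold, adjusted p = 0.00748) and by 1.20 ± 0.12 with DOM (2.29-fold, adjusted p = 0.000289). The DINCH change of 0.44 ± 0.14 was not called (adjusted p = 0.0729).

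Cyp51 encodes lanosterol demethylase, the cytochrome P450 that azole antifungals target in fungi. It read 1.63, 1.53, 1.42 and 1.38 with DMSO and 2.59, 2.51, 2.44 and 2.41 with DOM, a rise of 1.00 ± 0.10 (2.00-fold, adjusted p = 0.000285). With MEHP it read 2.25, 2.11, 1.98 and 1.97, between these groups and apart from both. The MEHP change was 0.59 ± 0.10 (adjusted p = 0.0224), which is just past the fold threshold. It was called in 8 of 18 refits with another setting or without 1 array, over which it ran from 0.53 to 0.63. DINCH gave 1.45, 1.87, 1.84 and 1.82, where the first replicate lay among the DMSO arrays and the others above them, and the change was 0.26 ± 0.12 (adjusted p = 0.216).

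Tm7sf2 encodes the sterol reductase that acts right after Cyp51. The DMSO arrays read 2.91, 2.79, 2.79 and 2.44 and the DOM arrays 4.65, 5.05, 4.77 and 4.64. DOS gave 3.74, 3.42 and 3.06 and MEHP 3.46, 3.40, 3.30 and 3.24, and these overlapped each other above DMSO. DOM stood far above both. Tm7sf2 rose by 2.04 ± 0.14 with DOM (4.13-fold, adjusted p = 0.000108), the largest change of the 9 genes. With MEHP the rise was 0.62 ± 0.11 (adjusted p = 0.0320) and with DINCH, at 3.34, 3.07, 2.96 and 3.15, the change was 0.40 ± 0.13 and was not called (adjusted p = 0.0844). A second probe of Tm7sf2 gave 2.04 ± 0.10 with DOM (adjusted p = 3.35e-05) and 0.60 ± 0.07 with MEHP (adjusted p = 0.00855). The MEHP call of the brightest probe was kept in 9 of the 18 refits, over which its change ran from 0.52 to 0.68.

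Nsdhl and Hsd17b7 encode the dehydrogenase and the ketone reductase of the complex that removes both methyl groups from carbon 4 of the sterol. Nsdhl read 2.07, 1.90, 1.86 and 1.95 with DMSO, 3.05, 2.95, 2.78 and 2.78 with MEHP and 3.49, 3.60, 3.39 and 3.25 with DOM. DINCH gave 2.45, 2.33, 2.25 and 2.68. The 4 groups did not overlap, in the order DMSO, DINCH, MEHP and DOM. Nsdhl rose by 0.95 ± 0.09 with MEHP (1.93-fold, adjusted p = 0.00581), the largest MEHP change of the 9, and by 1.48 ± 0.10 with DOM (2.80-fold, adjusted p = 0.000134). Its DINCH change of 0.48 ± 0.11 had an adjusted p of 0.0301 but was 1.39-fold and not called. The second probe of Nsdhl gave 0.71 ± 0.13 with MEHP and 1.25 ± 0.16 with DOM, both called, and 0.39 ± 0.15 with DINCH, not called.

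Hsd17b7 had the most uneven pattern over the compounds. It read 0.88, 1.098, 1.26 and 0.99 with DMSO and 0.99, 1.14, 0.90 and 1.12 with DINCH. With MEHP it read 1.66, 2.00, 1.73 and 1.54 and with DOM 2.88, 3.33, 3.05 and 2.67. The DINCH arrays lay inside the range of DMSO, the MEHP arrays above it and the DOM arrays above those. Hsd17b7 rose by 1.92 ± 0.15 with DOM (3.79-fold, adjusted p = 0.000188) and by 0.67 ± 0.12 with MEHP (1.60-fold, adjusted p = 0.0320). With DINCH the difference was -0.02, with a 95% interval from -0.28 to 0.23 (adjusted p = 0.925), which leaves out the changes seen with MEHP and DOM. The second probe gave 1.94 ± 0.10 with DOM, 0.78 ± 0.09 with MEHP and 0.05 ± 0.17 with DINCH. The MEHP call of the brightest probe was kept in 8 of the 18 refits, with changes from 0.58 to 0.74.

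Ebp encodes the sterol isomerase that shifts the ring double bond, also known as emopamil binding protein. The DMSO arrays read 4.66, 4.91, 4.72 and 4.59, the DINCH arrays 5.44, 5.27, 4.98 and 5.33 and the DOM arrays 5.31, 5.18, 5.19 and 4.95. MEHP gave 5.19, 5.02, 5.04 and 4.93. The 3 groups lay above DMSO, in part by a small gap, and overlapped each other. Ebp was the one gene of the 9 not called with DOM, at 0.44 ± 0.11 (1.35-fold, adjusted p = 0.0181). The DINCH change was 0.53 ± 0.12 (1.45-fold, adjusted p = 0.0289) and the MEHP change 0.32 ± 0.10 (adjusted p = 0.136). The first 2 passed the test of significance but not the fold threshold.

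Dhcr7 encodes the reductase that makes cholesterol from its last precursor, and its loss in humans causes Smith-Lemli-Opitz syndrome. It read 0.71, 0.62, 0.67 and 0.85 with DMSO and 1.46, 1.46, 1.30 and 1.59 with MEHP. DINCH gave 1.20, 1.23, 1.34 and 1.70 and DOM 1.38, 1.52, 1.30 and 1.5005. The 3 treated groups lay on one another and wholly above DMSO. The change was 0.74 ± 0.09 with MEHP (adjusted p = 0.00855), 0.65 ± 0.13 with DINCH (1.57-fold, adjusted p = 0.0160) and 0.71 ± 0.10 with DOM (adjusted p = 0.00103), and Dhcr7 was the one member called with all 3 compounds. DOS gave 1.16, 0.79 and 0.67 and BDB 1.01, 0.25, 0.96 and 0.63, each overlapping DMSO. The differences from DMSO were 0.16 with DOS (95% interval -0.15 to 0.48) and -0.01 with BDB (-0.37 to 0.36).

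In pathway order from Fdft1 to Dhcr7, the changes with DOM were 0.70, 0.78, 1.20, 1.00, 2.04, 1.48, 1.92, 0.44 and 0.71. In the same order those with MEHP were 0.62, 0.30, 0.93, 0.59, 0.62, 0.95, 0.67, 0.32 and 0.74. Ebp was among the smallest changes with both compounds, and Tm7sf2 and Hsd17b7, the largest with DOM, were not the largest with MEHP. DOM and MEHP lay in different rows of the slides, and the difference between them was not tested.

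DOS and BDB were compared with DMSO in the same way. With DOS 0 of the 9 genes were called, beside 0% of all genes tested in limma, where 1725 of 24209 probes had an unadjusted p below 0.05. All 9 DOS changes lay above 0, beside 47.8% of all genes, with a median of 0.32 (0.16 to 0.68). An unadjusted p below 0.05 was found in limma for 5 members (Fdft1, Cyp51, Tm7sf2, Nsdhl and Hsd17b7). The largest change was that of Tm7sf2, at 0.68 ± 0.18 (95% interval 0.26 to 1.09, adjusted p = 0.466). Of the 3 DOS arrays replicate 1 read highest for 8 of the 9 genes, all but Sqle, and on its slide the median difference from DMSO was 0.49, against 0.25 on the slide of the other two. With BDB 0 members were called, beside 0% of all genes, and 0 had an unadjusted p below 0.05, while 3494 of 24291 probes did. The 9 BDB differences had a median of -0.01 (-0.20 to 0.26), with 4 of the 9 above 0, beside 42.8% of all genes. Their 95% intervals reached from -0.43 for Fdft1 at the lowest to 0.53 for Lss at the highest.

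Compounds that lay in the same slide rows were compared with each other, at the same dose and time. These were 4 pairs, with p-values adjusted over the tested probes of all 4 together. DOM and DOS differ in the core of the molecule, where dioctyl maleate has a carbon-carbon double bond and dioctyl succinate a single bond. With DOM 6 of the 9 genes were called higher than with DOS (Sqle, Lss, Cyp51, Tm7sf2, Nsdhl and Hsd17b7), beside 6.34% of all genes, and none was called lower. The 9 differences had a median of 0.68 (0.21 to 1.48). Hsd17b7 read 1.70, 1.57 and 1.23 with DOS, all below the DOM arrays given before, a difference of 1.48 ± 0.18 (2.79-fold, adjusted p = 0.00386). For Tm7sf2 the difference was 1.37 ± 0.18 (adjusted p = 0.00480), for Nsdhl 0.99 ± 0.16 (adjusted p = 0.00889) and for Sqle 0.62 ± 0.11 (adjusted p = 0.0133). Sqle with DOS read 6.35, 6.43 and 6.55, inside the range of the DINCH arrays. Ebp did not pass, with a difference of 0.21 (95% interval -0.09 to 0.52), nor did Fdft1 (0.38, interval 0.12 to 0.64, adjusted p = 0.0716), and Dhcr7 had an adjusted p of 0.0451 at 1.46-fold. When every probe was tested, 1 member was called in place of 6. With the replicate block, whose numbers paired these arrays, 5 were called, and Sqle was lost at 0.57.

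**Figure D3:**
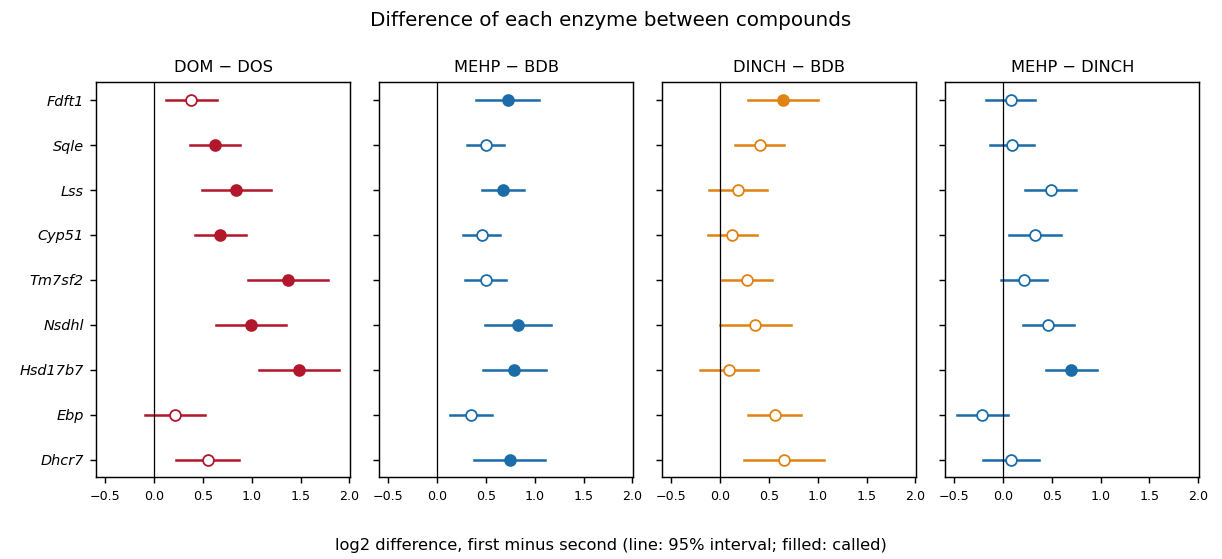
Difference of each enzyme between compounds on the log2 scale (horizontal axis), first compound minus second, in pathway order. Points are limma estimates, lines are 95% intervals and filled points mark genes called. All 9 estimates of DOM minus DOS lie above 0 and 6 of the 9 genes are called, and Hsd17b7 is the one gene called between MEHP and DINCH.

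MEHP was set against BDB and DINCH. Over BDB 5 members were called higher with MEHP (Fdft1, Lss, Nsdhl, Hsd17b7 and Dhcr7), beside 1.59% of all genes, with a median difference of 0.67 (0.35 to 0.83). The largest was Nsdhl, at 0.83 ± 0.15 (adjusted p = 0.0117), where BDB read 2.45, 1.85, 2.17 and 1.78. The other 4 members had adjusted p-values below 0.05 and differences of 0.35 to 0.50, under the fold threshold. Over DINCH 1 member was higher with MEHP, beside 1.65% of all genes. This was Hsd17b7, at 0.70 ± 0.12 (1.62-fold, adjusted p = 0.00856), and its second probe gave 0.72 ± 0.17 (adjusted p = 0.0315). Without DINCH replicate 4 the count was 2. Lss, at 0.49 ± 0.12 (adjusted p = 0.0294), and Nsdhl, at 0.47 ± 0.12 (adjusted p = 0.0372), passed the test of significance but not the fold threshold. Lss, Nsdhl, Cyp51 and Hsd17b7 read higher on every MEHP array than on every DINCH array. The share of all genes that did so was not computed. For Fdft1, Sqle and Dhcr7 the difference between MEHP and DINCH was at most 0.09, with intervals from -0.20 to 0.37 at the widest. Ebp was the one gene with a lower estimate with MEHP than with DINCH (-0.21, interval -0.47 to 0.05). Over BDB 1 member was called higher with DINCH, beside 5.21% of all genes. It was Fdft1, at 0.64 ± 0.16 (adjusted p = 0.0358). Ebp, at 0.56 ± 0.12 (adjusted p = 0.0223), and Sqle, at 0.41 ± 0.11 (adjusted p = 0.0484), passed the test of significance but not the fold threshold, and Dhcr7 was at 0.66 ± 0.18 (adjusted p = 0.0504). All 9 differences lay above 0, beside 54.5% of all genes, with a median of 0.36 (0.09 to 0.66). This count ran from 0 to 3 when single arrays were left out, with 3 called without BDB replicate 1, whose Fdft1 level was the highest of its group, and 0 without BDB replicate 2, 3 or 4 or DINCH replicate 1 or 4. When every probe was tested, no member was called in these 3 comparisons.

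The 3 slides, each scanned once, held arrays of every group, except that the second held none of DOS. Within each slide all 9 genes were higher with DOM than with DMSO, with medians of 1.01, 0.97 and 0.88, and all 9 were higher with MEHP, with medians of 0.65, 0.55 and 0.59. DINCH gave 8, 8 and 9 of the 9 above 0, with medians of 0.38, 0.43 and 0.47. BDB gave 8, 4 and 4, with medians of 0.19, -0.05 and -0.17. Between DOM and DOS all 9 differences lay above 0 on both slides that held them, with medians of 0.56 and 0.77, and in both rows, with medians of 0.67 and 0.84. Within rows 2 and 4 the median of DOM over DMSO was 1.06 and 0.94.

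The members also moved with each other from array to array inside a group. After each group's mean was taken out, the Pearson correlation over the 23 arrays had a median of 0.35 over the 36 pairs of members (range -0.21 to 0.85), and 34 pairs lay above 0, beside a median of 0.02 over pairs of all 12117 detected genes. These arrays share slides, and the correlations are a description. The closest pairs were Fdft1 with Nsdhl (0.85) and Fdft1 with Dhcr7 (0.84), and the lowest was Sqle with Cyp51 (-0.21). Hsd17b7 was closest to Tm7sf2 (0.55). Over all 23 arrays, group differences included, the mean standardized level of the 9 genes ran from 1.17 to 1.71 on the DOM arrays, from 0.36 to 0.63 with MEHP, from -0.27 to 0.48 with DINCH and from -0.47 to 0.30 with DOS. It ran from -1.003 to -0.90 with DMSO and from -1.38 to -0.49 with BDB. DOM stood apart from all other groups in this order, MEHP overlapped DINCH, DINCH overlapped DOS, and BDB spanned DMSO.

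**Figure D4:**
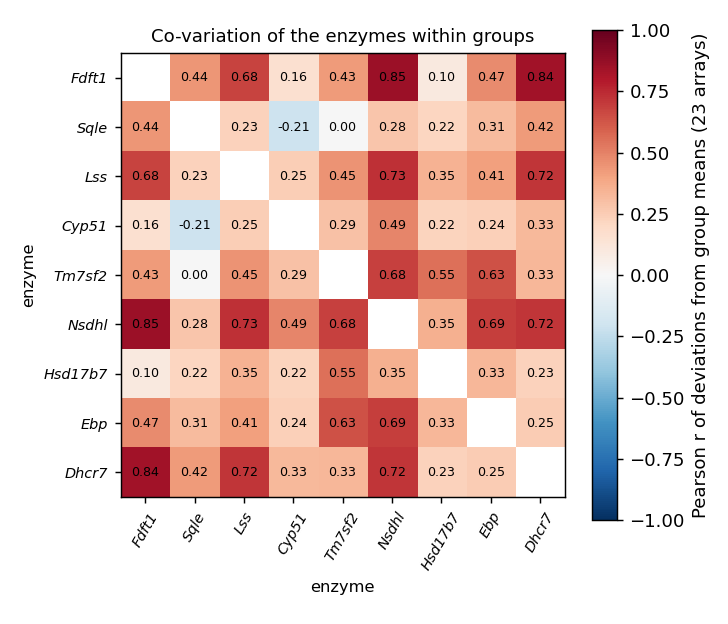
Pearson correlation between each pair of the 9 enzymes over the 23 arrays, after each group's mean was subtracted (rows and columns in pathway order, colour from -1 in blue to 1 in red). Of the 36 pairs 34 lie above 0, with the highest values between Fdft1, Nsdhl, Lss and Dhcr7 and the lowest for Sqle with Cyp51.

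Of 12157 genes compared, those most like this mean over the 23 arrays were Mvd (r = 0.970), Sc5d (0.960), Pcyt2 (0.955), Acly (0.951) and Elovl6 (0.933). Mvd encodes mevalonate diphosphate decarboxylase of the arm before squalene, Sc5d a sterol desaturase, Pcyt2 an enzyme of phospholipid synthesis, Acly ATP citrate lyase and Elovl6 a fatty acid elongase. The values include the differences between groups, which all of these points share.

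The rest of the pathway was taken as 3 lists. Beside all 3 lists stand the shares of all genes called higher, 9.9% with DOM, 1.13% with MEHP, 4.25% with DINCH and 0% with BDB and DOS. Of 9 genes of the mevalonate arm, 8 were called higher with DOM (median change 1.07), 7 with MEHP (0.79) and 5 with DINCH (0.59), and none with BDB or DOS. The uncalled changes with DOS had a median of 0.48, with 8 of the 9 above 0, beside 47.8% of all genes. Those with BDB had a median of 0.0017, with 5 of the 9 above 0, beside 42.8%. Mvd rose by 1.85 ± 0.13 with DOM, 1.27 ± 0.11 with MEHP and 1.04 ± 0.12 with DINCH, and Pmvk, phosphomevalonate kinase, by 1.07 ± 0.16, 1.27 ± 0.13 and 1.04 ± 0.16. With DINCH 5 of the 9 mevalonate genes and 1 of the 9 members were called, with medians of 0.59 and 0.44. Between DOM and DOS the order of the counts was turned, with 2 of the 9 mevalonate genes and 6 of the 9 members called. The share of all genes called higher there was 6.34%. In both lists all 9 differences lay above 0, beside 48.6% of all genes, with medians of 0.50 and 0.68. These medians lie near the 1.5-fold threshold that a call requires, and neither difference between the lists was tested. Of 4 further enzymes of the sterol arm, 3 were called higher with DOM, 2 with MEHP and 0 with DINCH. Of 7 genes that sense sterol or process SREBF2, 2 were called with DOM and 1 each with MEHP and DINCH. Insig1, the sterol-regulated anchor of this system, rose by 0.97 ± 0.11, 0.82 ± 0.11 and 0.64 ± 0.13 with DOM, MEHP and DINCH. Srebf2 itself was not called, at 0.32 ± 0.15 with DOM (adjusted p = 0.144), 0.32 ± 0.12 with MEHP (adjusted p = 0.215) and -0.02 ± 0.14 with DINCH (adjusted p = 0.963). None of the genes of these 3 lists was called lower in any of the 5 comparisons with DMSO.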

How the data were processed

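The deposited scanner files of 23 one-colour Agilent mouse arrays hold processed intensities, made by the authors with Feature Extraction 11.5.1.1 (background subtracted, detrended) and not scaled between arrays. The deposited table of log2 values holds the authors' normalized values of the same arrays. Each array's log2 intensity was shifted by its 75th percentile over non-control spots, outlier spots were dropped and repeat spots averaged by probe. A probe was tested when all arrays of at least 1 group of the pair had it well above background and not under their 20th percentile. Each comparison was fitted on its own 2 groups with limma 3.58.1 (R 4.3.3), and p-values were Benjamini-Hochberg adjusted over all tested probes, for the 4 compound pairs over those of all 4. Each gene is given by its brightest probe and counts as called when 1 or more of its probes are. Intervals are 95%.

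The 9 genes and all lists were chosen with earlier results of these data known. Besides the members, Mvd, Pmvk, Srebf2 and Insig1 and the 5 genes most like the members' mean were named. No spot was saturated, and the 75th percentile intensity ran from 204.6 to 350.7. An array has no read depth, and the number of arrays limits precision. Replicate numbers are shared between groups. Same-numbered arrays deviated together (every correlation above 0.1, pairing found from the values) for DINCH (0.17 to 0.50), BDB (0.25 to 0.43) and DOS (0.20 to 0.45) against DMSO, DOM against DOS (0.10 to 0.40) and DINCH against BDB (0.15 to 0.37), not for the other comparisons.

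As alternatives, arrays were quantile normalized or corrected with normexp (median signal, offset 50), dim probes were kept or had to be detected on 1 array, outlier spots were kept, the slide or the replicate number was a block, a single fit held all groups, only the brightest probe of a gene was tested, the authors' log2 table replaced the intensities, and each array was left out. The steps were tested on simulated data. Probe positions on the array's own genome build were not used here, and promoter windows are RefSeq's. Viability and qPCR data were not analysed here. Not every gene of the Sertoli cell marker list is reported here. Python 3.11.15 and matplotlib 3.10.9 drew the figures.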

Additional observations from a re-analysis of the deposited data

Results flagged for a closer look

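Of 45 combinations of a gene and a group of 4 arrays, 1 had an array far from the others. Cyp51 read 1.45 on DINCH replicate 1, against 1.82 to 1.87 on the other 3 DINCH arrays, and the gap was 0.870 of the group's range, past the limit of Dixon's test. Chance alone flags about 1 in 20 such groups. No cause of this value was tested.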

How the results depend on the processing

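Under the other settings 81 counts of called members stayed within 1.5 times the reported count and 9 did not. With no filter on dim probes the count was 0 for MEHP, DINCH, MEHP against DINCH, MEHP against BDB and DINCH against BDB, and 1 for DOM against DOS, while DOM against DMSO had 8. More probes were then tested and the spread was estimated over them too, with the same changes. For DINCH against BDB the count was also 2 with normexp background correction and with all groups in 1 fit, and 0 with detection on 1 array. Leaving out each array gave 0 to 2 members for DINCH against DMSO (0 without DMSO replicate 3 or DINCH replicate 4, and 2 without DMSO replicate 2 or 4 or DINCH replicate 2 or 3), 1 to 2 for MEHP against DINCH and 0 to 3 for DINCH against BDB. It gave 5 to 7 for MEHP, 8 for DOM, 5 to 6 for DOM against DOS, 4 to 5 for MEHP against BDB and 0 for BDB and DOS. The replicate block, in paired and unpaired comparisons alike, gave 8 members for DOM, 7 for MEHP, 1 for DINCH, 5 for DOM against DOS and 0 for the BDB and DOS comparisons with DMSO. Of the single-gene changes none that was called changed sign under any of these settings. With arrays, signal over background stands in for depth, and the brightest probe of every member was above background on all 23 arrays.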

Other observations

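DOM against DOS and MEHP against BDB share no array. Over the 9 members the 2 sets of differences had a Pearson correlation of 0.37 and a Spearman correlation of 0.47, given as a description over 9 genes.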
